A study of Mus musculus with 4 samples.

Results

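The receptors that read the constant part of IgG were followed by 7 genes, listed by name: Fcgr1, Fcgr2b, Fcgr3, Fcgr4, Fcer1g, Fcgrt and Fcrl5. All 7 were found among the 33696 genes of the files. Their unique molecular identifiers (UMIs, each of which marks 1 captured RNA molecule) were summed in cells sorted for CD45, the surface marker of leukocytes, from subcutaneous KPC tumours, a pancreatic cancer line from engineered mice that carry Trp53 LSL.R172H/+ and Pdx1-Cre among their alleles. Hosts were young adult male C57BL/6 mice, and the tumours of a group were pooled into 1 library on the day of resection. The 4 groups were untreated, STING agonist (ADU-S100, injected into the tumour), LTbR agonist (the antibody 4H8 against the lymphotoxin-beta receptor, given intraperitoneally) and STING and LTbR agonist (both, here called the combination). Thus 2 of the 4 libraries came from mice that had received an antibody, itself a possible ligand of these receptors, and the cells of all 4 were incubated with anti-FcRII/III before the CD45 stain.

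As background, Fcgr1, Fcgr3 and Fcgr4 encode activating receptors, which bind IgG on immune complexes and signal through the ITAM motif of a shared partner, the FcR gamma chain encoded by Fcer1g. Fcgr2b encodes the inhibitory receptor, whose ITIM motif recruits the phosphatase SHIP1 (Inpp5d) and which is the classical Fc gamma receptor of B cells. Fcgrt encodes the heavy chain of FcRn, which pairs with B2m, binds IgG in acidic endosomes and returns it to the cell surface. Fcrl5 encodes an Fc receptor-like protein of B lineage cells. Macrophages use these receptors to take up antibody-coated cells, and NK cells use Fcgr3 (CD16) to kill them.

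On the mouse genome GRCm38 with the GENCODE M21 annotation, Fcgr2b (chr1:170958617-170976547, minus strand), Fcgr4 (chr1:171018920-171029761, plus strand), Fcgr3 (chr1:171051174-171064935, minus strand) and Fcer1g (chr1:171229572-171234365, minus strand) lay within 275.749 kb of one another. Fcgr1 (chr3:96282909-96293969, minus strand) and Fcrl5 (chr3:87435773-87500678, plus strand) were on chromosome 3, and Fcgrt (chr7:45092990-45103851, minus strand) was on chromosome 7. Fcgr2b and Fcgr3 have closely related extracellular parts, and 1.85% to 6.43% of the 90-base words of the Fcgr2b transcripts were also in a transcript of Fcgr3, against 0% to 5.18% in the other direction. A small share of their reads could therefore be assigned to neither gene. The Fcgr4 transcript shared no such word with Fcgr3.

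Fcgr4 and Fcgr1 were the activating receptors with the lowest ratios to untreated in macrophages of the LTbR agonist and combination libraries, so the 250 bases before their RefSeq start sites are shown, 5′ to 3′ on the strand of the gene (GRCm38.p6, chr1:171018676-171018925 on the plus strand and chr3:96293970-96294219 on the minus strand). Capitals mark matches, on either strand, to TTCNNNGAA (the letters of the gamma-interferon activation site), to GAAA, any 2 bases and GAAA again (those of an interferon-stimulated response element, ISRE) or to GAGGAAGT (those of a PU.1 site).
Fcgr4: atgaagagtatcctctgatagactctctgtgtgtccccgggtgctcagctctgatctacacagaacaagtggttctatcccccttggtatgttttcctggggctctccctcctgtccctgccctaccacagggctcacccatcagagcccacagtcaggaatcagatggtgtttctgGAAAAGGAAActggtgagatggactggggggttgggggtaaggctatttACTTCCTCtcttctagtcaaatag
Fcgr1: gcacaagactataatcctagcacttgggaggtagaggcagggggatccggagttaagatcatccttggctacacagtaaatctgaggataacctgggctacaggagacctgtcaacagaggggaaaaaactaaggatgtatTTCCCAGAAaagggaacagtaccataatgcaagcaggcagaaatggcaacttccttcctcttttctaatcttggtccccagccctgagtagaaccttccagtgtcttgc
The Fcgr4 window held the ISRE letters, 73 bases before the start, and GAGGAAGT on the reverse strand, 24 bases before it, and the Fcgr1 window held TTCNNNGAA 109 bases before the start. Windows of the other 5 genes held none of the 3 words. Of 32851 RefSeq promoters of this length, 7.02% held TTCNNNGAA, 2.98% the ISRE letters and 2.44% GAGGAAGT.

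The files held 8730 cells for untreated, 15404 for STING agonist, 14634 for LTbR agonist and 16322 for the combination, and 7374, 13225, 13023 and 14420 leukocytes were kept. The median kept cell had 4616, 3110, 3738 and 2200 UMIs in that order, so the combination library was the shallowest per cell. A Ptprc (CD45) UMI was found in 83.9% to 91.2% of kept cells. Cells were grouped by clusters made without the 7 genes and named from marker genes, and 11.9% to 15.1% of leukocytes stayed unnamed. The libraries shared 30 to 70 kept barcodes per pair. The 7 genes gave 157789, 299717, 202922 and 138779 UMIs in leukocytes. Levels are given as CPM, the UMIs of a gene per 1000000 UMIs of its cell class, with exact Poisson 95% intervals. Each group was 1 library, so no test between groups was possible, and all intervals cover counting error only. UMIs were not scaled by gene length, so levels are compared between classes and libraries for 1 gene at a time.

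Each gene had its own distribution over the cell classes, and the order of classes was the first result. Fcgr1, the high-affinity receptor, was a macrophage and monocyte gene: its level there was 365 CPM in untreated, 343 with STING agonist, 288 with LTbR agonist and 274 with the combination. Conventional dendritic cells followed at 93.5 to 131 CPM, whereas neutrophils held 9.50 to 14.2 and T cells 3.61 to 8.98, so the ranges of macrophages and of dendritic cells overlapped neither each other nor those of any class below. The dendritic cell level came mostly from 1 of its clusters, described below, led by Cd209a, at 126 to 153 CPM. The cluster led by Xcr1 held 6.43 to 23.3 CPM and that led by Fscn1 3.16 to 30.8. Fcgr4 was likewise highest in macrophages and monocytes (435, 440, 279 and 270 CPM in the order of the libraries), but it was second in neutrophils (226, 180, 154 and 138), above dendritic cells (85.8, 105, 113 and 134), with no overlap between these 3 ranges.

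Fcgr3 was shared by macrophages and neutrophils. Its level was 780, 936, 702 and 701 CPM in macrophages and monocytes and 697, 1004, 836 and 836 in neutrophils, and these ranges overlapped. Dendritic cells held 173 to 396 CPM. Fcer1g, the signalling partner, was also high in NK cells. It reached 2512, 2694, 2321 and 2078 CPM in macrophages and monocytes, 2203, 2401, 1765 and 2086 in neutrophils, 1094, 1190, 1112 and 1124 in NK cells and 775, 973, 993 and 1159 in dendritic cells. The NK range was the narrowest of these and overlapped that of dendritic cells.

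Fcgr2b, the inhibitory receptor, was highest in macrophages and monocytes at 1192, 1387, 1163 and 1058 CPM and lower in dendritic cells at 320, 422, 537 and 695. B cells were few, 6 in untreated and 8 with STING agonist, and only the LTbR agonist library (139 cells) and the combination (210 cells) held enough for a level, 391 and 238 CPM. Neutrophils held 99.8 to 134 CPM of Fcgr2b. The summed level of 18 macrophage and monocyte markers in neutrophils was 1207 to 1914 CPM, against 20740 to 24849 in macrophages, and its part in the neutrophil value was not tested.

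Fcgrt had a different order, with conventional dendritic cells (99.3, 89.7, 95.1 and 113 CPM) above macrophages and monocytes (72.4, 44.3, 77.9 and 71.7) in each library. This is the order of whole classes: C1q high macrophages, a subset described below, were above conventional dendritic cells in each library. Neutrophils, which held much Fcgr3, Fcgr4 and Fcer1g, held 1.56 to 5.96 CPM of Fcgrt. Plasmacytoid dendritic cells, the main producers of type I interferon, were counted as 72, 73 and 119 cells in the untreated, STING agonist and LTbR agonist libraries and were under 50 in the combination. They held 124, 32.3 and 26.6 CPM of Fcgrt, so that their range overlapped those of both classes and untreated was well above the other two. Fcrl5 was a B cell gene, at 474 CPM with LTbR agonist and 283 with the combination, from 263 and 127 UMIs, and no Fcrl5 UMI was found in 7804 NK and T cells, which allows a share of cells with a UMI of up to 0.0384%.

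**Figure D1:**
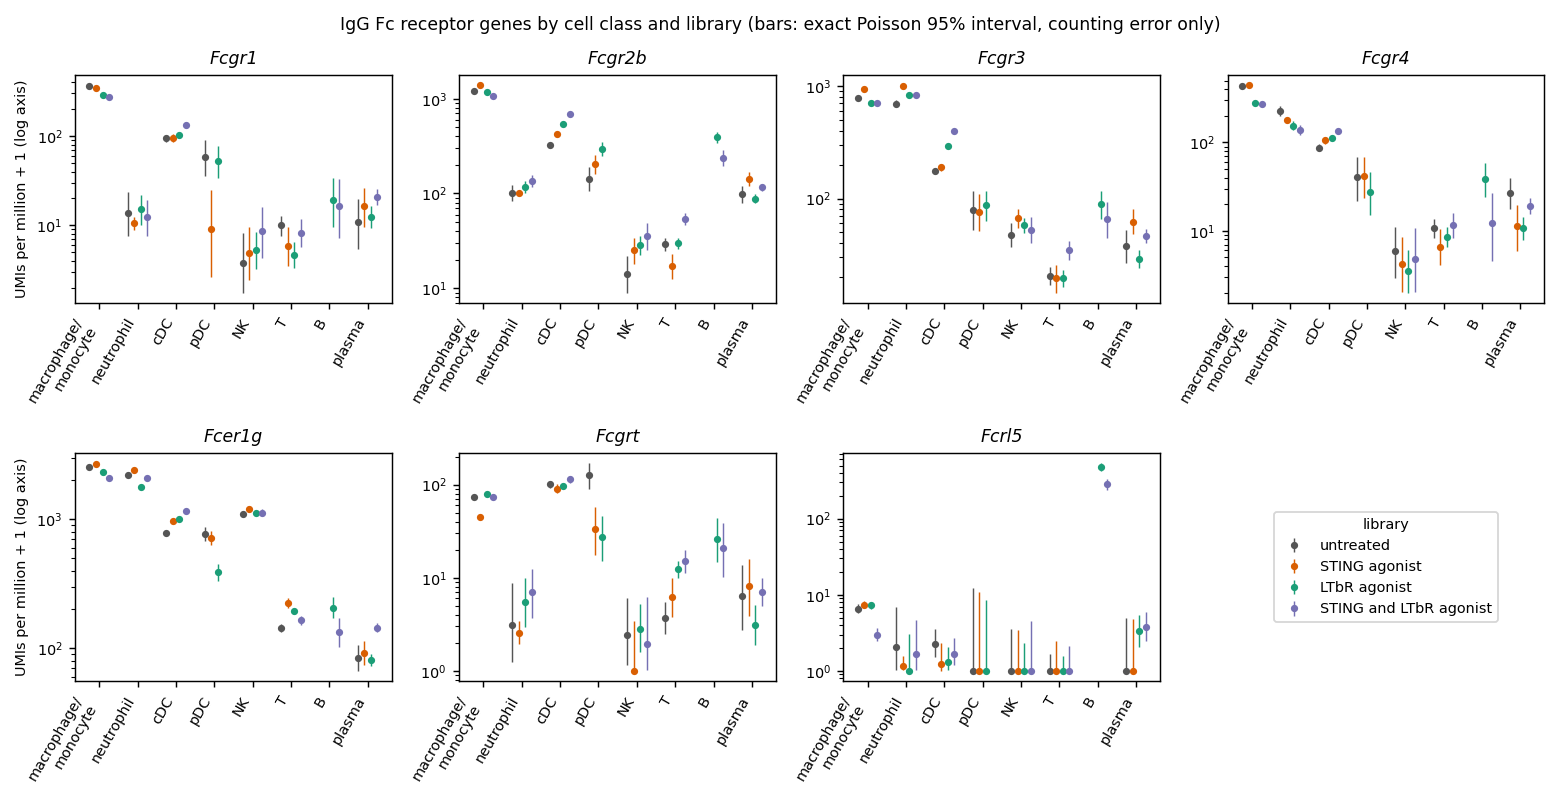
Level of the 7 genes in CPM plus 1 (log axis) in 8 cell classes, with 1 point per library and bars for the exact Poisson 95% interval; classes with under 50 cells in a library have no point. Fcgr1 and Fcgr4 sit highest in macrophages and monocytes, Fcgr3 is as high in neutrophils, Fcgrt is higher in conventional dendritic cells than in macrophages, and Fcrl5 is highest in B cells, at 474 and 283 CPM.

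The share of cells with a UMI was compared at equal depth by thinning each cell to 1000 UMIs. Cells under 1000 UMIs were left out, which kept 3030 of 3117, 4385 of 4547, 5758 of 6067 and 5671 of 6341 macrophages and monocytes in the order of the libraries, 412 of 492, 4557 of 5292, 799 of 973 and 691 of 1288 neutrophils and 370 of 395, 337 of 355, 755 of 830 and 405 of 574 NK cells. Of the thinned cells, 48.4%, 55.0%, 44.6% and 46.1% of macrophages and monocytes and 40.0%, 54.5%, 52.1% and 50.9% of neutrophils had an Fcgr3 UMI. NK cells stood far lower for Fcgr3, at 4.86%, 6.23%, 6.36% and 4.69% (unthinned 12.2%, 20.3%, 15.5% and 8.54%). T cells, taken as the background from free RNA, had 1.91%, 1.61%, 1.73% and 2.41% (unthinned 4.14%, 4.97%, 3.84% and 4.38%), at median depths of 1654 to 3644.5 UMIs against 1470.5 to 3413 in NK cells. NK cell markers summed to 1038 to 1212 CPM in T cells and to 5746 to 7166 in NK cells. The T cell share may therefore hold more than free RNA, which was not tested. The NK share was above the T cell share in each library, and the exact (Clopper-Pearson) 95% intervals of both did not overlap in 3 of them. In the combination they overlapped, at 2.85% to 7.23% and 1.64% to 3.41%. In CPM, NK cells held 46.8, 65.8, 57.1 and 51.9 of Fcgr3 against 19.6, 18.6, 18.5 and 33.7 in T cells. For Fcer1g the gap was wide, with a UMI in 51.9%, 46.6%, 55.9% and 56.3% of thinned NK cells (60.5% to 73.9% unthinned) against 8.38%, 12.7%, 12.3% and 10.7% of T cells (16.6% to 23.5% unthinned). For Fcgr2b, 1.08%, 4.15%, 2.25% and 3.21% of thinned NK cells had a UMI against 2.36%, 1.07%, 2.74% and 3.35% of T cells. NK cells were above T cells with STING agonist alone, where the intervals overlapped narrowly (2.29% to 6.87% and 0.395% to 2.32%).

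Plasma cells, which secrete IgG, had Fcgr2b at 96.6, 142, 87.3 and 115 CPM, and 14.4%, 14.5%, 7.24% and 11.4% of thinned plasma cells had a UMI of it (unthinned 35.6%, 60.9%, 31.1% and 27.3%), at median depths of 3183.5, 15330, 9272 and 3235 UMIs. These thinned shares lay above those of T cells in each library. Plasma cells held Fcgr2b and Fcer1g in another proportion than macrophages: the UMIs of Fcgr2b over those of Fcer1g were 1.16, 1.56, 1.09 and 0.804 in plasma cells, 0.475, 0.515, 0.501 and 0.509 in macrophages and 1.90 and 1.78 in the B cells of the LTbR agonist and combination libraries. The 18 macrophage markers summed to 2603 to 3305 CPM in plasma cells, above the 843 to 1473 of T cells, and their part in the plasma cell level was not tested. Fcrl5 was at most 2.79 CPM in plasma cells. It was not found in the 104 of untreated or the 64 of STING agonist, which allows shares of up to 2.88% and 4.69%.

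The next question was how each agonist changed the receptors within macrophages and monocytes, the class that held 74.1% to 86.2% of all Fcgr2b UMIs and 80.3% to 89.0% of all Fcgr4 UMIs. Fcgr4 was lower in both libraries that received the LTbR agonist antibody. Against untreated, its log2 ratio was −0.64 with LTbR agonist (95% counting interval −0.68 to −0.60) and −0.69 with the combination (−0.73 to −0.64), but 0.02 with STING agonist (−0.02 to 0.05). The share of thinned cells with an Fcgr4 UMI moved alike, from 27.5% in untreated and 28.2% with STING agonist to 19.3% and 19.7% in the LTbR agonist and combination libraries (unthinned 68.5%, 69.3%, 49.1% and 41.0%). Fcgr1 was lower in the same libraries by less, with log2 ratios of −0.09, −0.34 and −0.41 for STING agonist, LTbR agonist and combination.

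The other receptors of macrophages and monocytes differed less. Fcgr2b had log2 ratios of 0.22, −0.04 and −0.17, Fcgr3 of 0.26, −0.15 and −0.15, and Fcer1g of 0.10, −0.11 and −0.27. With STING agonist the median gene of the class stood at −0.20, so that relative to it these 3 genes were higher by more, and with the other agonists the median gene was within 0.1 of 0. Neutrophil markers summed to 467 CPM in untreated macrophages and monocytes and to 793 to 857 in the treated libraries, and their part in these values was not tested. Fcgrt was lower with STING agonist, at −0.71 (−0.81 to −0.61), against 0.10 with LTbR agonist and −0.01 with the combination, and relative to the median gene it was −0.51.

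Called values were those past 1.5-fold in either direction with at least 200 UMIs over both libraries. With STING agonist 1 of 7 members, Fcgrt, was called, beside 15.7% of all 10172 genes. With LTbR agonist 1 of 7, Fcgr4, was called, beside 6.29%, and with the combination 1 of 6, Fcgr4 again, beside 5.8%. With so few members, 1 call is not read as a result about the group, and these 3 comparisons share the untreated library. The median log2 ratio of the members was 0.10, −0.11 and −0.22, against −0.20, −0.04 and −0.08 over all genes. Against STING agonist rather than untreated, the combination had Fcgr4 at −0.71 and Fcgrt at 0.69, and against LTbR agonist at −0.05 and −0.12.

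Macrophages and monocytes were then split by markers into subsets, of which 3 are described: C1q high macrophages (942 to 1543 cells), Chil3 Vcan monocytes (322 to 1096) and monocytes with high MHC class II and Ccr2 (393 to 1168). Fcgr4 was lower in the LTbR agonist and combination libraries in each of these 3, and the size differed. The remaining subsets are not described, so a lower level in every macrophage subset is not claimed. In C1q high macrophages, which resemble resident tissue macrophages in their complement genes, Fcgr4 was at 575, 750, 410 and 449 CPM. In the MHC class II high Ccr2 monocytes it was at 381, 389, 180 and 176 CPM, which gives log2 ratios of 0.03 with STING agonist, −1.08 with LTbR agonist (−1.21 to −0.95) and −1.11 with the combination (−1.25 to −0.98). The LTbR agonist and combination ratios were −0.53 and −0.51 in Chil3 Vcan monocytes. With STING agonist Fcgr4 was higher in C1q high macrophages (0.38, interval 0.33 to 0.43).

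Fcgr1 was also lower in the LTbR agonist and combination libraries in all 3 subsets. Chil3 Vcan monocytes, close to the classical blood monocyte, had 463, 366, 307 and 285 CPM, and the log2 ratios were −0.34, −0.59 and −0.70. In the MHC class II high Ccr2 monocytes Fcgr1 was at 379, 330, 254 and 240 CPM, and in C1q high macrophages at 379, 337, 278 and 304. Untreated was the highest of the 4 libraries in all 3.

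Fcgrt depended on the subset more than on treatment. C1q high macrophages held 113, 117, 200 and 149 CPM, the MHC class II high Ccr2 monocytes 38.1, 35.6, 43.4 and 51.0, and Chil3 Vcan monocytes 16.1, 9.38, 17.2 and 19.6. The ranges of these 3 subsets did not overlap. The class-wide value of −0.71 with STING agonist was not seen within C1q high macrophages, where the ratio was 0.04 (−0.08 to 0.16). It was −0.10 (−0.47 to 0.28) in the MHC class II high Ccr2 monocytes and −0.77 (−1.56 to −0.02) in Chil3 Vcan monocytes, from 25 and 40 UMIs with STING agonist and in untreated. C1q high macrophages were 17.4% of leukocytes in untreated and 7.12% with STING agonist. Within C1q high macrophages Fcgrt was higher with LTbR agonist, by a log2 ratio of 0.82 (0.72 to 0.92), and with the combination, by 0.39 (0.27 to 0.51).

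**Figure D2:**
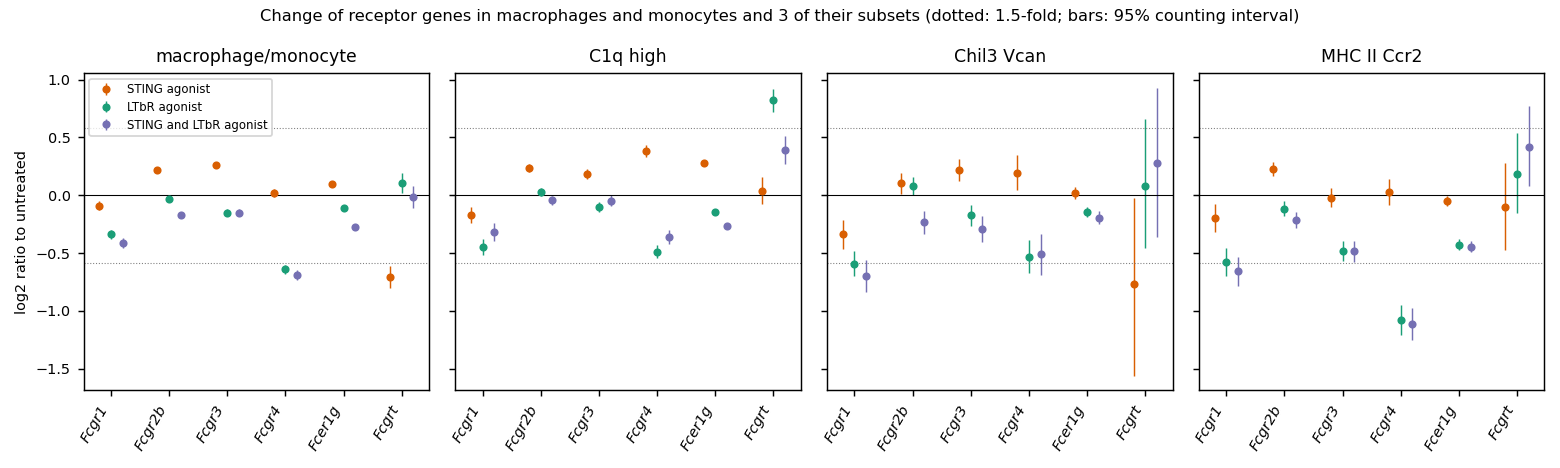
Log2 ratio of 6 receptor genes to untreated in macrophages and monocytes together and in 3 of their subsets, with 1 colour per treated library, bars for the 95% counting interval and dotted lines at 1.5-fold. Fcgr4 lies below 0 in the LTbR agonist and combination libraries in each panel and is lowest in the MHC II Ccr2 monocytes, and Fcgrt lies at −0.71 with STING agonist in the whole class but at 0.04 in C1q high cells.

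The balance of activating and inhibitory receptor RNA was taken as the UMIs of Fcgr1, Fcgr3 and Fcgr4 over those of Fcgr2b in the same cells, which does not depend on the total used for scaling. It reports RNA of different genes, without a scaling for capture, so its change between libraries carries more than its absolute size. In macrophages and monocytes it was 1.32 in untreated, 1.24 with STING agonist, 1.09 with LTbR agonist and 1.18 with the combination. The log2 ratios to untreated were −0.10, −0.28 and −0.17, and their log-normal counting intervals (−0.12 to −0.07, −0.31 to −0.25 and −0.20 to −0.14) did not include 0. Without Fcgr3, which shares sequence with Fcgr2b, the ratio was 0.671, 0.564, 0.488 and 0.514, so the order of the libraries was kept.

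The 3 subsets differed in this ratio. Chil3 Vcan monocytes had 1.76, 1.68, 1.28 and 1.5 activating UMIs per Fcgr2b UMI, and the MHC class II high Ccr2 monocytes 1.31, 1.08, 0.911 and 0.952, under 1 in the LTbR agonist and combination libraries. C1q high macrophages had 1.38, 1.34, 1.11 and 1.24. Neutrophils stood apart at 9.29, 12, 8.60 and 7.33. B cells, whose classical Fc gamma receptor is that of Fcgr2b, had 0.369 with LTbR agonist and 0.383 with the combination. Macrophage markers summed to 2534 and 1358 CPM in these B cells, and their part in the 2 ratios was not tested.

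**Figure D3:**
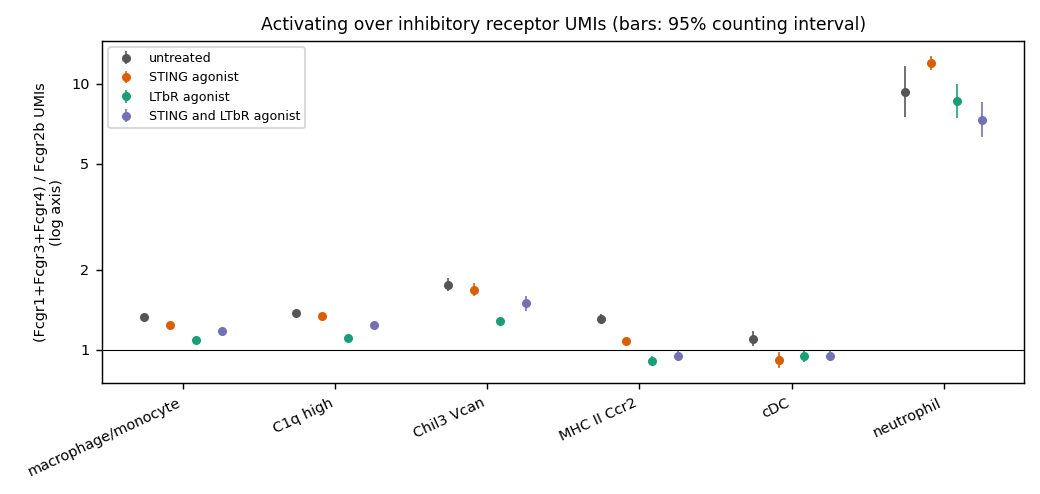
UMIs of Fcgr1, Fcgr3 and Fcgr4 over UMIs of Fcgr2b (log axis) in macrophages and monocytes, 3 of their subsets, conventional dendritic cells (cDC) and neutrophils, with 1 point per library and bars for the 95% counting interval. Neutrophils lie between 7.33 and 12 and all other groups between 0.911 and 1.76, with the LTbR agonist library lowest in the 3 macrophage and monocyte subsets.

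In single macrophages and monocytes thinned to 1000 UMIs, activating and inhibitory receptors were seen together more often than either was seen alone. Both were detected in 47.0%, 52.4%, 42.7% and 40.0% of cells, an activating receptor alone in 24.0%, 20.9%, 20.7% and 23.6%, Fcgr2b alone in 15.8%, 16.2%, 20.3% and 18.2% and neither in 13.2%, 10.6%, 16.3% and 18.1%. At this depth a cell without a UMI cannot be told from a cell with low expression.

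Neutrophils were 6.67%, 40.0%, 7.47% and 8.93% of leukocytes, so the STING agonist library held 5292 of them and the others 492, 973 and 1288. Fcgr3 was higher in them in every treated library, with log2 ratios of 0.53 with STING agonist (0.41 to 0.64), 0.26 with LTbR agonist (0.13 to 0.40) and 0.26 with the combination (0.13 to 0.40). Fcgr4 was lower in every treated library, by −0.34, −0.56 and −0.72 (−1.0 to −0.43) on the log2 scale. No member was called with STING agonist (0 of 4, beside 29.4% of all genes, whose median was −0.25) or LTbR agonist (0 of 4, beside 12.4%), and 1 of 4, Fcgr4, with the combination, beside 8.22%. With STING agonist Fcgr3 was past 1.5-fold relative to the median gene, at 0.77, and in cells thinned to 1000 UMIs, at 0.59. Fcgr4 with STING agonist was at −0.0875 relative to the median gene, so its −0.34 lay close to that gene. In neutrophils with high Ccl3, an activated state (35, 683, 92 and 81 cells), Fcgr3 was at 826, 1317, 1250 and 1201 CPM, and in the mature Cxcr2 Retnlg neutrophils (38, 392, 179 and 214 cells) at 802, 1011, 636 and 729. The untreated values in both rest on few cells.

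Over all leukocytes, the changed class shares entered the level. Fcgr3 had a log2 ratio of 0.60 with STING agonist, which became 0.28 when the class shares of UMIs were held at those of untreated, and Fcer1g went from 0.37 to 0.15. With neutrophils left out, the same ratios went from 0.52 to 0.27 for Fcgr3 and from 0.35 to 0.15 for Fcer1g. Neutrophils held 2.89% of Fcgr3 UMIs in untreated and 23.5% with STING agonist. With the shares of all classes held in the same way, Fcgr4 went from 0.16 to 0.03 with STING agonist. It went from −0.62 to −0.57 with LTbR agonist and from −0.67 to −0.60 with the combination. For Fcrl5 the value for LTbR agonist was 1.19 as measured and 0.24 at the untreated shares, and for the combination 0.27 and −1.24.

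In conventional dendritic cells, which take up antigen and present it to T cells, Fcgr2b and Fcgr3 were higher over the whole class with LTbR agonist and with the combination, though for LTbR agonist not in each of its clusters. Fcgr2b was at 320, 422, 537 and 695 CPM, with log2 ratios of 0.40, 0.74 and 1.12, and Fcgr3 at 173, 188, 294 and 396 CPM, with 0.12, 0.76 and 1.19. Fcgr4 had 0.30, 0.39 and 0.64 and Fcgr1 −0.00, 0.11 and 0.49. Under other ways to filter or name the cells, the LTbR agonist and combination values reached −0.26 and −0.00 for Fcgr4 and −0.32 and −0.10 for Fcgr1, so no direction is given for these 2 genes. No member of 6 was called with STING agonist (background 7.89%), 2 of 6 with LTbR agonist (7.01%) and 3 of 6 with the combination (13.9%). Fcgrt had −0.15, −0.06 and 0.18.

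The class joined 3 clusters in different shares. The cluster led by Cd209a, a gene of cDC2 and monocyte-derived cells, held 57.4%, 68.0%, 75.4% and 83.0% of the class, and the clusters led by Xcr1, a cDC1 gene, and by Fscn1, a gene of migratory dendritic cells, held the rest. Fcgr2b and Fcgr3 lay mostly in the Cd209a cluster, at 500, 552, 702 and 808 CPM for Fcgr2b and 273, 243, 386 and 464 for Fcgr3. Within it the log2 ratios were smaller, 0.14, 0.49 and 0.69 for Fcgr2b and −0.17, 0.50 and 0.76 for Fcgr3, and Fcgr4 had 0.02, 0.11 and 0.20. Fcgrt was at 123, 90.8, 107 and 114 CPM in it, with log2 ratios of −0.44 (−0.67 to −0.21), −0.20 and −0.12, so the combination value had the opposite sign to that of the class. In the Xcr1 cluster (53 to 129 cells) Fcgr2b had 0.83, −0.51 (−1.04 to −0.01) and 0.31 and Fcgr3 0.43, −0.65 (−1.46 to 0.07) and 0.38. In the Fscn1 cluster (106 to 152 cells) Fcgr2b had 1.04, −0.52 (−1.36 to 0.29) and 2.25, from 32, 45, 23 and 65 UMIs, and Fcgr3 gave 12, 34, 6 and 22 UMIs. Macrophage genes moved in these clusters too. In the Xcr1 cluster C1qa had 1.16, −2.02 and −0.04 and Apoe 0.41, −2.64 and −1.15, and in the Fscn1 cluster C1qa had 2.0, −1.12 and 2.65 and Apoe 1.49, −0.87 and 3.54. With LTbR agonist Fcgr2b was thus below untreated in these 2 clusters and above it in the Cd209a cluster, though its Fscn1 interval reached 0.29. Fcgr3 was below untreated in the Xcr1 cluster and above it in the Cd209a cluster, though its Xcr1 interval reached 0.07. In the Cd209a cluster C1qa had 0.16 with LTbR agonist and Apoe −0.30, so Apoe was lower in each cluster. All 18 macrophage markers were found in the class in each library, and their sum was 3770, 3463, 5698 and 9236 CPM, or 5860, 4510, 7473 and 10794 in the Cd209a cluster. The 14 dendritic cell markers summed to 4638, 3540, 3602 and 2613 CPM in the class and to 1814, 1784, 1561 and 1367 in that cluster, against 444 to 624 in macrophages and monocytes. In the Cd209a cluster the macrophage markers thus outweighed those of the class it was named for, in every library, so its markers went partly against the name. C1qa was at 765, 533, 853 and 1425 CPM there and Flt3, a dendritic cell gene, at 101, 111, 66.6 and 49.0. The part of macrophage RNA in the Fc receptor levels of these clusters was not tested.

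**Figure D4:**
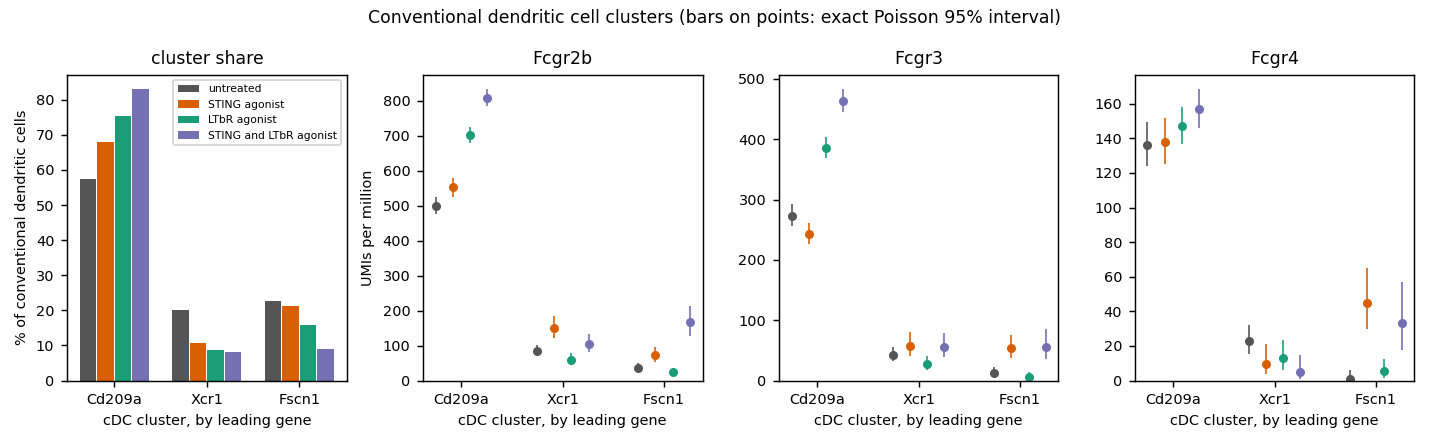
Conventional dendritic cell clusters named by a leading gene: share of the class in percent (left) and level of Fcgr2b, Fcgr3 and Fcgr4 in CPM, with 1 colour per library and bars on points for the exact Poisson 95% interval. The Cd209a cluster holds 57.4% of the class in untreated and 83.0% in the combination and has the highest level of the 3 genes in every library.

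In NK cells Fcer1g was steady, with log2 ratios of 0.12, 0.02 and 0.04. No member was called in them, of 1 with STING agonist (background 4.64%), 2 with LTbR agonist (2.71%) and 1 with the combination (4.37%). Fcgr3 passed the UMI minimum in the comparison with LTbR agonist alone, at 0.28 (−0.13 to 0.72).

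Outside B cells, most Fcrl5 UMIs lay in macrophages and monocytes. There 208 cells held 643 of them, with at most 23 in 1 cell. Of these cells 202 had a UMI of a C1q gene, 79 one of any of the 9 B cell markers and 1 one of Cd79a. In C1q high macrophages the level was 7.41, 19.6, 13.8 and 4.52 CPM. With groups chosen after the values were seen, 414 of the 643 UMIs lay in 127 cells of the cluster led by Ch25h, Col14a1, Ccl12 and Olfml3, and 181 in 43 cells of a cycling cluster led by Ankle1, Esco2, Pbk and Plk1. In B cells Fcrl5 was lower in the combination than with LTbR agonist, at a log2 ratio of −0.74 (−1.06 to −0.44), and Fcgr2b at −0.71 (−1.06 to −0.38), from 210 and 139 cells. The macrophage markers summed to 1358 CPM in the B cells of the combination and to 2534 with LTbR agonist, and Fcer1g was at 134 and 205 CPM, and their part in the Fcgr2b value was not tested.

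Genes that act with the receptors were read from lists in macrophages and monocytes, where the call was again 1.5-fold, beside the 15.7%, 6.29% and 5.8% of all genes past it with STING agonist, LTbR agonist and combination. At these shares a count of 0 or 1 in a short list is not read as a result about the list. None of 11 activating signalling genes was past it in any treated library, and the list medians of −0.27, 0.02 and −0.04 lay near those of all genes (−0.20, −0.04 and −0.08). The largest values were those of the Src family kinase Fgr (−0.27, 0.54 and 0.27), the phosphoinositide kinase subunit Pik3cd (−0.45, 0.16 and 0.00) and the phospholipase Plcg2 (−0.42, 0.08 and 0.11). None of 6 inhibitory signalling genes was past it either. The phosphatase Inpp5d, the effector of Fcgr2b, had −0.48, −0.17 and −0.11, the adaptor Dok1 −0.44, −0.14 and −0.06 and the phosphatase Inppl1 −0.41, −0.07 and −0.18.

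For partners in IgG handling, B2m, the light chain of FcRn, had 0.01, −0.15 and −0.17, and Trim21, the cytosolic IgG receptor, −0.62, −0.09 and −0.38, so Trim21 was past 1.5-fold with STING agonist but at −0.42, within it, relative to the median gene. Among 10 other Fc receptor and Fc receptor-like genes 2 reached 200 UMIs, and Fcrlb was past the fold with STING agonist (0.85, 0.22 and 0.10) while Fcrla was not (−0.03, 0.06 and −0.32). Of 5 other receptors that use the FcR gamma chain, 3 were measured. Clec4e (Mincle) had 1.68, 0.64 and 0.51, Clec4n (Dectin-2) 0.46, 0.27 and 0.23 and Pira2 0.40, −0.28 and −0.28. Clec4e was thus past the fold with STING agonist and with LTbR agonist, and relative to the median gene Clec4n (0.66) and Pira2 (0.60) were past it with STING agonist too. Of 8 interferon response genes 1, Ifit3, was past it in each library (−1.10, −0.63 and −0.68), and it was lower. Cxcl9 had −0.37, −0.51 and −0.25 and Irf1 0.40, 0.32 and 0.05, with Irf1 at 0.60 for STING agonist relative to the median gene.

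IgG heavy chain RNA, the product of plasma cells, was found at low levels in macrophages and monocytes. Plasma cells were 1.41%, 0.484%, 3.03% and 5.70% of leukocytes. Over all leukocytes Ighg1 was at 1410, 753, 3964 and 4858 CPM, and in macrophages and monocytes at 29.0, 7.35, 58.4 and 88.4. T cells held 42.7, 18.6, 100.5 and 192 CPM of Ighg1, so the macrophage level was below that of T cells in each library. Ighg2c was at 17.2, 14.6, 40.3 and 95.6 CPM in macrophages, against 418, 231, 2785 and 3126 over all leukocytes. Ighg2b was at 6.82, 0.546, 4.82 and 82.7 CPM, against 81.0, 154, 1385 and 2541. Ighg1 and Ighg2c thus ranked the libraries alike in macrophages and over all leukocytes, and Ighg2b did not. Past the fold were 1 of 2 measured heavy chain genes with STING agonist (lower), 2 of 3 with LTbR agonist and 3 of 3 with the combination (higher), beside the same 15.7%, 6.29% and 5.8% of all genes.

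Finally, the genes with the pattern most like each receptor were taken over 29 class and library sums of 8 classes, by Pearson's r of log2(CPM + 1) among 11510 genes. The sums share libraries, so r is a description. Fcgr1 was most like Aif1 (r = 0.97), followed by Cfb and Ctss, and Fcgr2b was most like the protease gene Ctss (0.96), followed by Lrp1 and Lgmn. Fcgr3 was most like Igsf6 (0.97), followed by Itgam and Osm, and Fcgr4 like Atp6v0c (0.97), followed by Cd300c2 and Sirpb1c. Fcer1g was most like Tyrobp (0.94), which encodes the ITAM adaptor DAP12, followed by Arrdc4 and Pxn. Fcgrt was most like Plekho1 (0.96), then Plxnb2 and Tmem50b, and Fcrl5 like the B cell gene Cd22 (0.91), then Fcmr and Ahnak2. Between members, r was highest for Fcgr1 with Fcgr2b (0.92) and for Fcgr3 with Fcgr4 (0.90), and lowest for Fcer1g with Fcrl5 (−0.14).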

How the data were processed

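Cells sorted for CD45 from KPC tumours were profiled with a 10x 5′ kit, 1 library per group, as the second of 2 experiments; the first was not analysed here. The deposited count matrices hold whole UMI counts per gene and cell. Per the labels the authors used Cell Ranger 7.1.0 with mm10, while the file headers name version 8.0.1, and the labels and the paper name different versions of the kit.

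Cells with 300 to 5000 genes and at most 6% mitochondrial UMIs were kept, after the limits of the study. Scrublet's own threshold marked 0, 0, 1 and 0 cells, so the highest scores were removed at 0.4% per 1000 cells (305, 949, 857 and 1066 cells). Cells were clustered together in scanpy 1.11.5 (2000 variable genes, 30 components, 20 neighbours, Leiden resolution 1) without the members, the genes of the lists and immunoglobulin, T cell receptor, mitochondrial and ribosomal genes. A cluster was named by the class with most markers at least 1.5-fold up in at least 10% of its cells, with at least 3 markers (4 for subsets) and no other class ahead among its top 10 genes. These naming thresholds were set after clusters were seen.

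UMIs were summed per class and library. Log2 ratios add 0.5 UMI to each count and have exact binomial 95% intervals; the ratio of receptor ratios has a log-normal interval from 4 counts. No test was run, since each group is 1 library of pooled tumours. PCR duplicates are removed by UMIs, and all intervals cover counting error only. Kept cells had medians of 2200 to 4616 UMIs. Text names the 7 members, the 3 genes of each list with the largest absolute log2 ratio in macrophages and monocytes, and the 3 genes most like each member. Members and lists were chosen with earlier results of these data known. The scripts were tested on simulated data. Promoters came from RefSeq (7 of 7 members matched, in 8 entries). Alternatives changed doublets, the mitochondrial limit, resolution, naming, thinning, scaling and minimums. A macrophage subset and an allele of the tumour line are not reported here.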

Additional observations from a re-analysis of the deposited data

Results flagged for a closer look

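As measured, the log2 ratio of Fcgr4 to untreated had different signs in different cell classes of the combination library. It was 0.64 in conventional dendritic cells and −0.69 in macrophages and monocytes, a difference of 1.33, and −0.72 in neutrophils, a difference of 1.35. With 1 library a group, the difference was not tested. Within the Cd209a cluster of the dendritic cells the ratio was 0.20, and with no doublet removal it was −0.00138 for the class. The dendritic cell sign therefore depended on the filter, and macrophage markers summed to 9236 CPM in this class against 2613 for its own markers, so no direction is given for Fcgr4 in it.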

How the results depend on the processing

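No paired analysis was possible because each group is 1 library, and for the same reason no replicate could be left out. Of 543 log2 ratios of members under the alternatives, 392 moved by less than their counting interval, 150 moved by more and 1 called value reversed: Fcgr4 in dendritic cells of the combination was −0.00138 with no doublet removal. It was 0.07 with a mitochondrial limit of 10%, 0.08 when cells were named without clusters and 0.26 at resolution 2. Counting small values too, 42 of the 543 changed sign, in 18 of 54 ratios, and 22 of them were in dendritic cells. There Fcgr4 with LTbR agonist (0.39) was lowest, at −0.26, when cells were named without clusters, and Fcgr1 with the combination (0.49) at −0.10, at resolution 2. Fcgr3 in NK cells with LTbR agonist (0.28) was −0.30 when cells were named without clusters. Of the 9 called values, 8 kept their sign in all alternatives and 4 stayed past 1.5-fold in all. Fcgr4 in macrophages ranged from −0.68 to −0.60 with LTbR agonist and from −0.73 to −0.61 with the combination, whereas Fcgrt with STING agonist ranged from −0.75 to −0.51. The activating to inhibitory ratio in macrophages had log2 values of −0.35 for LTbR agonist and −0.0904 for the combination in cells thinned to 1000 UMIs, and of −0.25, −0.46 and −0.38 for STING agonist, LTbR agonist and combination without Fcgr3. The number of members past 1.5-fold in macrophages was 0 with STING agonist when centred on the median gene, and 2 in the combination with a minimum of 50 UMIs or none, Fcrl5 (−1.49) being the other. Over all genes the numbers past 1.5-fold for STING agonist, LTbR agonist and combination were 1602, 641 and 572 in macrophages, 602, 288 and 304 when thinned, 2628, 1282 and 1192 with a minimum of 50 UMIs and 9828, 7468 and 7426 with none. Of 168 shares of cells with a UMI, 140 moved beyond their interval with thinning to another depth or none. The levels at untreated class shares moved in 0 of 21 cases without neutrophils.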
